A study of Mus musculus with 6 samples.

Results

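The 10 genes described here encode GTPases that cells make in response to interferon-gamma, and they were taken by symbol from the 32285 genes counted in each library. Gbp2, Gbp3, Gbp4, Gbp5, Gbp6 and Gbp7 are guanylate-binding proteins (GBPs), and Iigp1, Igtp, Irgm1 and Irgm2 are immunity-related GTPases (IRGs). They were selected on measured values, namely their differences between hyperoxia and room air at postnatal day 21 and between the male and the female room air library of that age. Values for those contrasts are therefore given as a description. Where counts of calls from a fit of the hyperoxia contrast are printed, they describe the choice of genes and are no test of it. All 10 were found in every library.

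The study asked how the lung recovers from neonatal oxygen injury and whether recovery differs between the sexes. Lungs of wild-type C57BL/6N mice were dissociated, live cells were sorted, and 3-prime single-cell RNA libraries were made. Each of the 6 libraries pooled 3 mice of 1 sex. Females and males in room air at postnatal day 1 gave a library each, as did females and males in room air at day 21, and females and males of day 21 that had breathed 95% oxygen on days 1 to 5 before their return to room air. With 1 library per group there was no replicate, and the intervals of single libraries cover counting error only. A tested p-value rests on the 1 residual degree of freedom left by fitting 2 factors to 4 libraries, and it does not measure the spread between pools of a group.

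GBPs and IRGs are among the most strongly induced products of interferon-gamma, a cytokine made mainly by T cells and natural killer (NK) cells. The receptor signals through the kinases JAK1 and JAK2, and the genes that answer often carry GAS or ISRE elements in their promoters, the latter bound by interferon regulatory factors. GBPs assemble on the vacuoles of bacteria and parasites and help to open them. Among the IRGs, Iigp1 is an effector that coats such vacuoles, and Irgm1, Irgm2 and Igtp (also called Irgm3) are regulators that sit on the cell's own membranes.

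The genes lie in small clusters (GRCm38, GENCODE M21). Gbp5 (chr3:142493978-142522344), Gbp7 (chr3:142530342-142550149), Gbp3 (chr3:142560026-142573209) and Gbp2 (chr3:142620602-142638008) follow each other on the plus strand of chromosome 3. Gbp4 (chr5:105115767-105139586) and Gbp6 (chr5:105270702-105293698) lie on the minus strand of chromosome 5. Igtp (chr11:58199556-58207591) and Irgm2 (chr11:58199618-58222782) overlap on the plus strand of chromosome 11, with 162 shared exon bases, and Irgm1 (chr11:48861968-48871683) is on the minus strand of that chromosome. Counts of Gbp6 are uncertain, because 65.5% of the 90-base windows in the last 500 bases of its transcripts also occur in transcripts of Gbp10 or Gm43302. For Gbp4 the share was 8.22%, and for the other 8 genes it was 0.

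RefSeq promoters (GRCm38.p6, 250 bases before to 50 after the start) were matched for 7 of the 10 genes. They were searched for the letters that interferon-responsive factors read. No promoter was matched for Gbp4, Gbp6 and Iigp1. The ISRE letters GAAANNGAAA, searched on both strands, occurred in 7 of 8 promoters (Gbp3 has a pair), against 3.44% of all 32851 promoters, and so in 7 of 7 genes, against 3.99% of all genes in the table. The GAS letters TTCNNNGAA, which read the same on both strands, occurred in 4 of 8 promoters, against 8.30% of all promoters, and in 4 of 7 genes (Gbp5, Gbp7, Igtp and Irgm2), against 9.55% of all genes. No GAS match overlapped an ISRE match, while Gbp3 and Irgm1 each held a pair of overlapping ISRE matches. A match is a run of letters and was not tested for binding. In the following 60-base windows, written 5′ to 3′ in the gene's direction, capitals mark the ISRE letters or their reverse complement.
Gbp2, plus strand, chr3:142620579-142620638: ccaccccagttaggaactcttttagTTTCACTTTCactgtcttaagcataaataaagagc
Gbp3, plus strand, chr3:142559974-142560033: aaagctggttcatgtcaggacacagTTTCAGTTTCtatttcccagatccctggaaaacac
Gbp5, plus strand, chr3:142496744-142496803: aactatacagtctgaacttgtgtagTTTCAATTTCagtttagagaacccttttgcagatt
Gbp7, plus strand, chr3:142530258-142530317: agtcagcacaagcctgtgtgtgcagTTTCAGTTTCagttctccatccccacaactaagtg
Igtp, plus strand, chr11:58199497-58199556: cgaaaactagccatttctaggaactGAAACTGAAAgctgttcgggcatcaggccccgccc
Irgm2, plus strand, chr11:58214888-58214947: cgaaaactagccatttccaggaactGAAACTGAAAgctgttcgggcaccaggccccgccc
Irgm1, minus strand, chr11:48871410-48871469: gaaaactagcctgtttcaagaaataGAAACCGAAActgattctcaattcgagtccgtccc
The first capital lies 59 bases before the RefSeq start of Gbp2, 45 before that of Gbp3 and 165 before that of Gbp5. It lies 53 bases before that of Gbp7, 34 before that of Igtp, 64 before that of Irgm2 and 24 before that of Irgm1. These RefSeq starts differ from the starts of the GENCODE spans given above. The windows of Gbp5, Irgm2 and Irgm1 lie inside those spans, and that of Gbp2 lies partly inside. The letters stand as TTTC repeats in the GBP genes and as GAAA repeats in the IRG genes. The windows of Igtp and Irgm2 share 58 of 60 bases, while no window in the last 500 bases of either transcript occurred in another gene. Of the other lists, the ISRE letters were in 3 of 4 other GTPases of the same families, 1 of 8 signalling genes, 3 of 12 other interferon-gamma targets, 7 of 13 type I interferon targets and 0 of 4 MHC class II genes. The GAS letters were in 2, 3, 1, 3 and 0 of the same genes.

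Libraries held 122173482 to 163649658 UMIs (unique molecular identifiers, each 1 counted transcript), and the 55804 cells with an author class of an endothelial, epithelial, immune or mesenchymal lineage had a median of 8325 to 9681 UMIs per library. Levels are given as UMIs per 1000000 UMIs of the same class and library (CPM). Library pairs shared 9 to 37 cell barcodes, of which at most 3 had the same class in both. In the female hyperoxia library 56.2% of cells held a UMI of Xist, against 84.4% and 77.1% in the other female libraries, so results with that library were also computed without its cells that lack Xist. Of those 3647 cells 0.110% held a UMI of a Y-linked gene (Ddx3y, Eif2s3y, Kdm5d or Uty). Among cells lacking Xist in the female room air libraries the share was 0.0555% at day 1 and 0% at day 21. Over all cells it was 0.0780% and 0.0707% in those 2 libraries, and 65.2% to 77.5% in the male libraries. Why so many of its cells lack Xist was not tested. General capillary cells (gCap), the class with the most cells at day 21, were higher than other cells for all 5 of their markers, including Gpihbp1 and Plvap.

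In gCap cells the male room air library of day 21 stood above the other 5 libraries for each of the 10 genes, while the order of the other libraries differed between genes. Values are given in the order female day 1, male day 1, female room air day 21, male room air day 21, female hyperoxia day 21 and male hyperoxia day 21. Among the effectors, Iigp1, on chromosome 18, stood at 40.5, 44.3, 94.0, 284, 66.5 and 62.9 CPM. Both room air libraries of day 21 lay above both hyperoxia libraries, and these lay above both day 1 libraries, with no overlap. Gbp2, a lipid-anchored GBP, stood at 24.0, 20.6, 58.0, 118, 46.9 and 45.2 CPM in the same order. Its 3 conditions fell in the same order as those of Iigp1. Gbp7 stood at 83.0, 85.4, 146, 269, 112 and 103 CPM. Gbp5, known for its part in inflammasome activation, stood at 2.99, 1.84, 12.0, 28.4, 7.80 and 6.74 CPM. For both genes the day 1 libraries were lowest and the male room air library was highest.

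In Gbp4 and Gbp3 the hyperoxia libraries lay at the level of day 1. Gbp4 stood at 37.4, 38.6, 52.3, 125, 38.9 and 37.8 CPM, with the hyperoxia libraries beside those of day 1. Gbp3 stood at 18.5, 21.2, 26.9, 45.3, 20.1 and 19.3 CPM, and here both hyperoxia libraries lay between the day 1 libraries. Gbp6 stood at 9.66, 10.0, 19.2, 54.6, 16.6 and 11.8 CPM, with the caveat on shared sequence given above.

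The regulators Irgm1, Irgm2 and Igtp had unlike patterns over age. Irgm2 stood at 7.70, 9.39, 38.4, 78.2, 28.9 and 28.1 CPM, and all 4 day 21 libraries lay well above day 1. Irgm1 stood at 43.6, 39.1, 42.3, 79.9, 37.5 and 34.4 CPM. Only the male room air library was above day 1 for Irgm1, and the female room air library lay within the day 1 range. Igtp stood at 12.6, 15.6, 22.4, 75.1, 15.0 and 14.0 CPM, with the hyperoxia libraries inside the day 1 range.

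**Figure D1:**
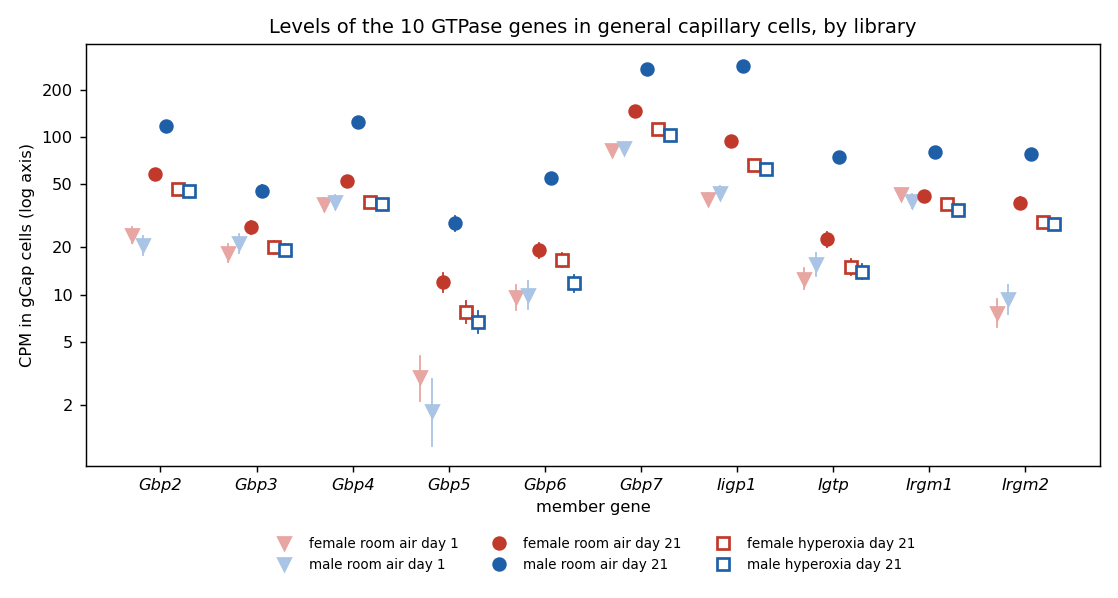
Levels of the 10 genes in gCap cells, in CPM on a log axis, with 1 point per library and exact 95% Poisson intervals as bars (counting error only, often smaller than the point). The filled blue circle, the male room air library of day 21, is the highest point for every gene, and the open squares of hyperoxia lie below both filled circles.

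The male and female room air libraries of day 21 differed most for Igtp, Iigp1 and Gbp6. In gCap cells the male library was 3.35-fold higher for Igtp, 3.02-fold for Iigp1, 2.84-fold for Gbp6, 2.39-fold for Gbp4, 2.37-fold for Gbp5, 2.04-fold for both Gbp2 and Irgm2, 1.89-fold for Irgm1, 1.84-fold for Gbp7 and 1.68-fold for Gbp3. Counting intervals did not overlap for any of the 10. The share of all genes with such a gap is not given here, and this contrast took part in picking the genes. Nothing about the members is read from that count. Summed over the genes, the level was 511 CPM in the female and 1157 CPM in the male library, a ratio of 2.26. With 1 pool per sex the difference is one between these libraries. It cannot be told apart from a difference between the sexes.

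The difference between the room air libraries was not confined to endothelium. Of the 17 classes with at least 50 cells in both libraries, 16 had a higher summed level in the male, with a median ratio of 1.71. The ratio was 2.57 in nonclassical monocytes (137 CPM in the female and 352 CPM in the male), 2.25 in interstitial macrophages 2, 2.18 in arterial, 2.04 in aerocyte capillary (aCap) and 1.64 in venous endothelial cells. It was 1.76 in classical monocytes, 1.71 in neutrophils and 1.72 in regulatory T cells. At the other end stood T cells at 1.20, dendritic cells at 1.03 and NK cells at 0.93. In T cells the median gene of all those tested lay 0.16 log2 units lower in the male, and scaling by TMM moved the members' ratio there to 1.36. Over single genes, 139 of 170 gene and class pairs were higher in the male and 28 were lower. Among the classes where all genes tested were read out, the share higher in the male ran from 34.1% in T cells to 51.6% in arterial cells, with 48.6% in gCap.

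The other male and female pairs had ratios around 1. After hyperoxia the median ratio over 17 classes was 0.93, with a range of 0.82 to 1.23, and 5 classes were higher in the male. At day 1 the median ratio over 20 classes was 0.98, and 8 were higher in the male. Its lowest value, 0.32, belonged to AT2 cells, of which the female library held 54. In gCap cells the summed levels were 280.0 CPM in the female and 286 CPM in the male at day 1, and 389.8 and 363 CPM after hyperoxia. Without the cells of the female hyperoxia library that lack Xist, the female gCap level was 350.1 CPM, and the male over female ratio went from 0.93 to 1.04. Over the 14 classes that kept at least 50 cells, the median ratio was then 0.95 (0.91 with all cells of the same classes) and its range was 0.73 to 1.23.

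**Figure D2:**
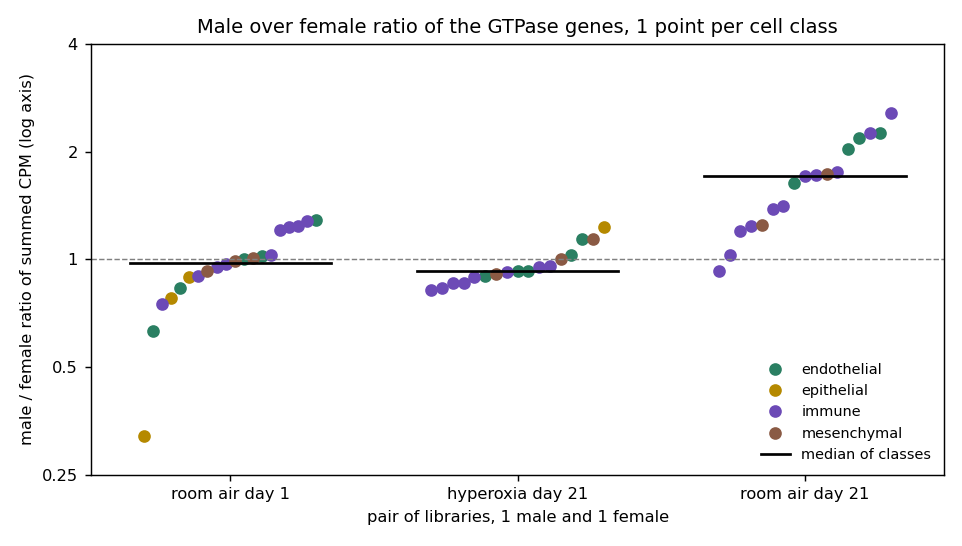
Ratio of the summed CPM of the 10 genes, male over female, on a log axis, for each pair of libraries with 1 point per class that had at least 50 cells in both. Points of day 1 and of hyperoxia scatter around 1, with medians of 0.98 and 0.93, while those of room air at day 21 have a median of 1.71.

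The sex comparison was tested on the other male and female pairs, day 1 and hyperoxia. The difference between the sexes in those pairs did not pick the genes, although the hyperoxia libraries took part in the choice through the hyperoxia contrast. Counts were summed per class and library over day 1 and hyperoxia, and the quasi-likelihood test of edgeR was run with condition as a covariate. None of the 94 gene and class pairs tested, over 12 classes, passed an adjusted p of 0.05, where 0.198% of all pairs of a gene and a class did. At an unadjusted p under 0.05 there were 3, and DESeq2 called 0. Without the female hyperoxia cells that lack Xist, 0 of 93 pairs were called, with 4 at an unadjusted p under 0.05, where 0.584% of all pairs were called. In gCap cells the fitted female minus male differences ran from -0.09 for Igtp (SE 0.15) to 0.33 for Gbp5 (SE 0.23) on the log2 scale. The largest in size after Gbp5 was that of Gbp6, 0.26 (SE 0.16). These errors leave room for differences of the size fitted, and the missing calls do not show equal levels.

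Within each sex, room air was set beside hyperoxia at day 21 as a description. In female gCap cells the summed level was 511 CPM in room air and 389.8 CPM after hyperoxia, a ratio of 1.31. In male gCap cells it was 1157 and 363 CPM, a ratio of 3.19. All 10 genes were lower after hyperoxia in both sexes. The male ratio was 3.80 in nonclassical monocytes, 2.83 in aCap, 2.52 in arterial cells, 2.33 in neutrophils and 2.06 in classical monocytes. The female ratio in those classes was 1.21, 1.25, 1.31, 1.18 and 1.04. Female T cells went the other way, with 347 CPM in room air and 408 CPM after hyperoxia. So did female regulatory T cells, with 231 and 279 CPM, and alveolar macrophages of both sexes, with 94.2 and 133 CPM in females and 117 and 122 CPM in males.

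Over the 4 libraries of day 21, both room air libraries lay above both hyperoxia libraries for 10 of 10 genes in gCap, 9 in aCap, 8 each in arterial and venous cells, 6 in nonclassical monocytes and 5 each in classical monocytes, neutrophils and matrix fibroblasts. The count was 4 in B cells, 3 in NK cells, 2 each in T cells and myofibroblasts, 1 in regulatory T cells and 0 in alveolar macrophages. The share of all genes in the same order is not given here, so nothing about the members is read from these counts. In alveolar macrophages Iigp1 stood at 0.507 and 1.15 CPM in room air and at 3.48 and 4.30 CPM after hyperoxia, from at most 21 UMIs per library. A fit over both sexes called 34 of 127 gene and class pairs lower after hyperoxia (26.8%, where 0.654% of all pairs were) and 1 higher (0.787%, where 1.63% of all pairs were), or 27.6% in either direction, against 2.28% of all pairs. In gCap it called 10 of 10 lower, where 1.19% of all genes were. This contrast picked the genes, so nothing is read from these counts. Without the male room air library the calls in either direction were 9 of 127 (2.48% of all pairs), and without the female one 49 of 134 (2.55% of all pairs). They were 39 of 126 without the cells lacking Xist in the female hyperoxia library (2.45% of all pairs). DESeq2 made 1 call (0.773% of all pairs) and the fit without the sex covariate made 2 (1.03% of all pairs). In gCap cells the fitted direction was lower for all 10 without either room air library. Gbp4 was at -1.07 log2 with all 4 libraries, -0.43 without the male and -1.68 without the female library.

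Across classes, the genes divided by cell type as well as by library. The class order below is by the mean over the 4 day 21 libraries, among 14 classes with at least 50 cells in each. The summed level was 605 ± 374 CPM (SD, n = 4) in gCap, 568 ± 312 in arterial and 549 ± 217 in venous cells, followed by 381 ± 36.0 in T cells. The classes share the same libraries, so these SDs do not show whether the 3 endothelial classes differ. Within libraries, gCap lay above arterial in 3 of 4, and arterial lay above venous in 1 of 4. The male room air library raises the 3 means, and the order turned in single libraries. In female hyperoxia T cells, at 408 CPM, lay above venous (398 CPM), gCap (389.8 CPM) and arterial cells (359 CPM). In male hyperoxia gCap stood at 363 CPM and T cells at 352 CPM, below arterial (409.6 CPM) and venous cells (410.2 CPM). The lowest were nonclassical monocytes at 174 ± 120.4 CPM and alveolar macrophages at 116 ± 16.2 CPM. The SD spans both treatments and both sexes.

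Single genes had class orders of their own. Iigp1 at day 21 had its highest mean in arterial cells, at 131 ± 113 CPM (SD, n = 4), with venous and gCap cells inside that spread. Arterial lay above venous cells in 1 of 4 libraries only, the male room air library (300.1 against 261 CPM). Matrix fibroblasts (94.1 ± 41.2) and myofibroblasts (61.3 ± 30.6) followed, and T cells, at 27.2 ± 8.84 CPM, and regulatory T cells, at 19.3 ± 23.7 CPM, stood before the aerocytes of aCap, at 12.5 ± 9.50 CPM. The mean of regulatory T cells is raised by the male room air library, at 54.4 CPM. The gene was at 1.11 ± 0.387 CPM in neutrophils and 0.968 ± 0.249 CPM in nonclassical monocytes. Neutrophils led for Gbp2 by the mean, at 80.9 ± 47.6 CPM, above arterial cells (67.5 ± 27.5) in 3 of 4 libraries. The male room air library, at 149.9 CPM, raises that mean. Venous cells lay above neutrophils in female room air (77.3 against 74.7 CPM) and in male hyperoxia (53.7 against 46.2 CPM). Classical monocytes led for Irgm1, at 69.4 ± 15.9 CPM, above the next class (gCap) in all 4 libraries. T cells led for Igtp, at 64.4 ± 13.4 CPM, above regulatory T cells in all 4 libraries, and for Gbp6, at 30.1 ± 1.91 CPM, above gCap in 3 of 4 libraries.

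Among immune classes, the male room air library was the highest of the 4 of day 21 for 10 of 10 genes in both monocyte classes and 9 in neutrophils, B cells and regulatory T cells, but for 3 in T cells and NK cells and 1 in alveolar macrophages. The share of all genes highest in that library is not given here. Some of these genes rest on few UMIs, such as Iigp1 in neutrophils, with 14 in the female and 8 in the male room air library. In neutrophils, the myeloid class with the most cells at day 21, Gbp2 stood at 74.7 CPM in the female and 149.9 CPM in the male room air library, and at 52.6 and 46.2 CPM after hyperoxia. In nonclassical monocytes the same gene stood at 21.0 and 123 CPM in room air, and at 15.1 and 17.1 CPM after hyperoxia. The male room air library stood apart in both classes. In T cells, Gbp2 stood at 29.9 and 40.9 CPM in room air and at 43.5 and 33.0 CPM after hyperoxia, so the groups overlapped. Irgm2 in T cells stood at 32.0, 43.3, 34.5 and 35.2 CPM in that order, and Gbp7 at 70.7, 69.2, 71.1 and 65.9 CPM. In pericytes, the mesenchymal class with the most cells over the 4 day 21 libraries, Iigp1 stood at 67.3 and 71.1 CPM in room air and at 38.7 and 30.6 CPM after hyperoxia, without overlap, though the male room air library held 46 pericytes.

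**Figure D3:**
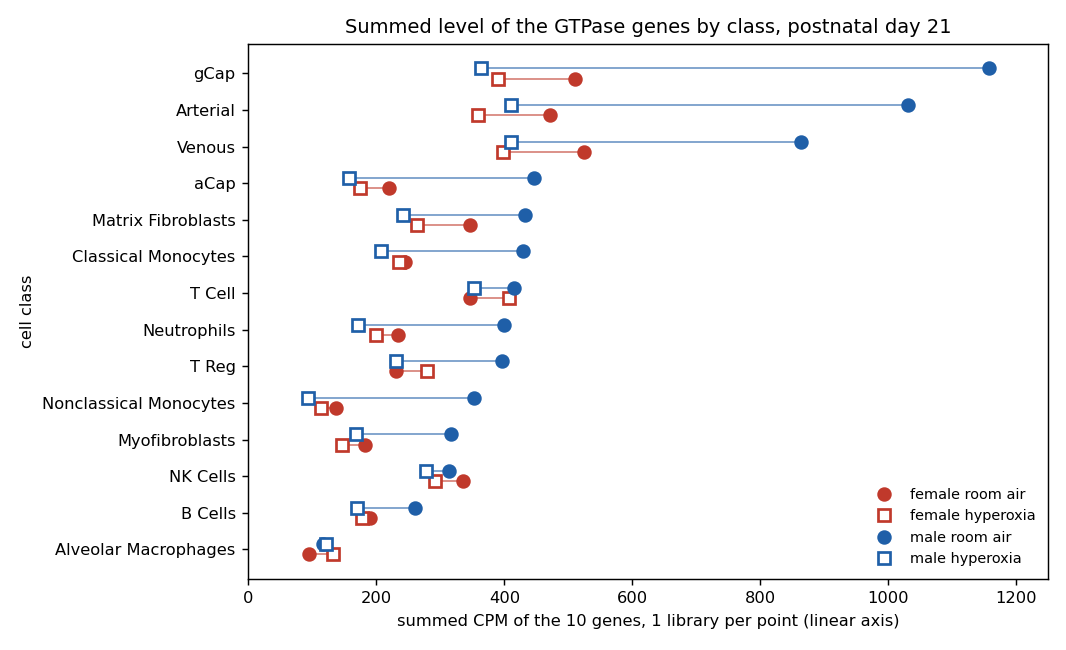
Summed CPM of the 10 genes (linear axis) for each class with at least 50 cells in all 4 day 21 libraries, with circles for room air, squares for hyperoxia, red for female and blue for male. The blue lines are the longest in gCap, arterial and venous cells, where the male room air library reached 1157, 1031 and 863 CPM, and the 4 libraries of T cells lie between 347 and 415 CPM.

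Counted per cell, the male room air library had more gCap cells with many UMIs of these genes. Each cell was thinned to 2000 UMIs, which left out 14 of 1425 gCap cells of that library and 9 to 129 of the others. At least 5 UMIs of the 10 genes were then held by 15.4% of gCap cells in the male room air library. The share was 2.50% in the female room air library, 1.40% in female and 0.874% in male hyperoxia, and 0.308% and 1.03% at day 1. In the same male library 33.9% of cells held none, against 47.0% in the female room air library. The mean was 2.306 UMIs per thinned cell in the male and 0.998 in the female room air library. Arterial cells had a like split, with 13.1% of cells at 5 or more UMIs in the male and 1.18% in the female room air library.

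For Iigp1 alone, 50.2% of gCap cells held a UMI in the male room air library (95% interval 47.5 to 52.8, exact binomial). The share was 38.9% in the female library of the same group, 30.8% and 27.5% after hyperoxia (female and male) and 15.9% and 14.4% at day 1. After thinning the shares were 26.4%, 13.5%, 10.7%, 9.55%, 6.88% and 6.63% in that order. In alveolar macrophages, where the gene stood near 0, the shares were 0.821% to 5.88%, and 0% to 0.741% after thinning. Median depth was 14826 to 20502 UMIs in those macrophages and 5203 to 8694 UMIs in gCap cells, so the shares in gCap lay above the background of deeper cells.

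**Figure D4:**
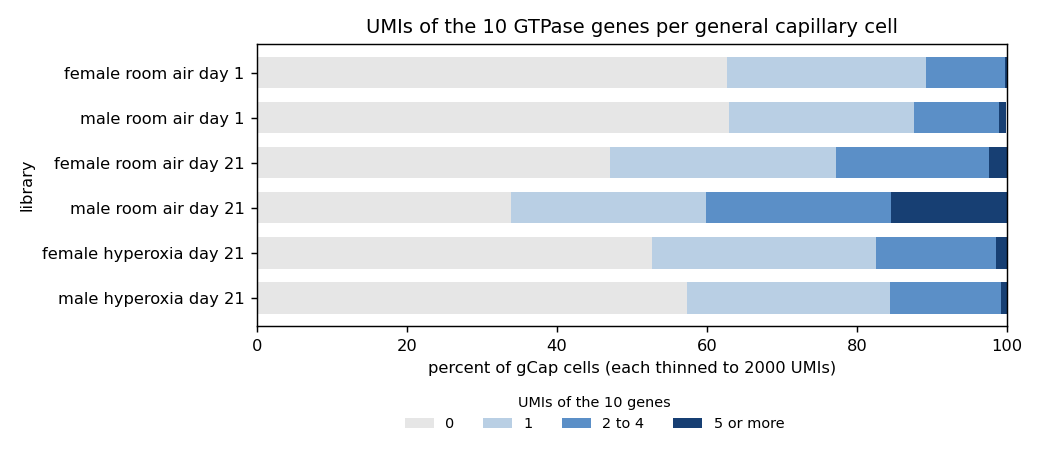
Share of gCap cells, in percent, by the number of UMIs of the 10 genes after thinning each cell to 2000 UMIs, 1 bar per library. The darkest segment, 5 or more UMIs, covers 15.4% of the cells of the male room air library of day 21 and at most 2.50% in the other libraries.

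Age was compared in the 4 room air libraries. Both day 21 libraries of this comparison also took part in picking the genes, as did the hyperoxia libraries, so no age value here is independent of the choice, and the calls are given as a description. In gCap all 10 genes were called higher at day 21 than at day 1 by the quasi-likelihood test of edgeR with sex as a covariate, where 35.1% of all genes tested in gCap were. In arterial cells all 10 were called higher too, where 30.2% of all genes were. The largest rises in gCap were those of Gbp5, with a log2 change of 2.77 (SE 0.25, adjusted p = 1.1e-13), and Irgm2, with 2.57 (SE 0.17, adjusted p = 4.57e-19). Iigp1 rose by 1.83 (SE 0.16) and Gbp2 by 1.76 (SE 0.16), followed by Gbp6 at 1.61, Igtp at 1.45, Gbp7 at 1.11, Gbp4 at 0.97 and Gbp3 at 0.69. Irgm1 had the smallest rise, 0.37 (SE 0.15, adjusted p = 0.0274).

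Over 10 classes, 69 of 88 gene and class pairs tested were called higher at day 21 (78.4%, where 28.6% of all pairs were). Lower was called for 1 pair (1.14%, where 25.7% of all pairs were), so that calls in either direction made up 79.5%, against 54.3% of all pairs. The median log2 change was 1.45 for these pairs and 0.01 for all genes tested. Pairs that passed the filter on low counts were 88 of 100. Besides gCap and arterial cells, higher was called for 8 of 10 genes in venous cells (25.3% of all genes of the class), 8 of 9 in matrix fibroblasts (25.5%), 7 of 9 in aCap (28.6%) and 6 of 8 in myofibroblasts (26.0%). In immune classes it was called for 6 of 7 in neutrophils (33.8%), 5 of 8 in B cells (25.4%), 5 of 9 in NK cells (24.9%) and 4 of 8 in alveolar macrophages (28.9%). Irgm2 was called higher in all 10 classes, though in alveolar macrophages it had only 2 and 3 UMIs at day 1. In alveolar macrophages Gbp5 had 0 UMIs in both day 1 libraries and 3.38 and 4.16 CPM in the room air libraries of day 21. It is among the 4 called there, but it passed the filter on low counts only through day 21, so that call is set by the filter. Other called pairs counted above also had few UMIs at day 1. Among them were Irgm2 in the same class, Gbp5 (1 and 2 UMIs) and Gbp3 (7 and 5) in neutrophils and Gbp6 in myofibroblasts (8 and 2). How far the filter set those calls was not tested.

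The single fall was Iigp1 in myofibroblasts. The gene stood at 239 and 241 CPM at day 1, the highest level of any class at that age, and at 67.3 and 100.4 CPM in room air at day 21 (log2 change -1.59, SE 0.18, adjusted p = 1.05e-07 by edgeR). After hyperoxia it stood at 49.6 and 28.0 CPM, below every room air library. Myofibroblasts numbered 1212 and 618 at day 1 and 56 to 98 per library at day 21. In the same cells Gbp2 rose by 3.02 (SE 0.41) and Irgm2 by 3.16 (SE 0.50). Both were low at day 1, Gbp2 at 3.71 and 3.42 CPM and Irgm2 at 2.06 and 2.28 CPM. They passed the filter on low counts mainly through day 21, and how far it set these calls was not tested. In matrix fibroblasts, Iigp1 stood at 91.0 and 89.0 CPM at day 1 and at 111 and 144 CPM in room air at day 21, which was not called.

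The male library carried part of the difference. Fits without 1 library had no sex covariate, and the remaining day 21 library was assumed to vary like the day 1 pair, which alone gave the spread. Without the male room air library of day 21, 45 of 86 pairs were called higher (52.3%, where 24.2% of all pairs were) and the median was 1.01. Without the female one, 72 of 92 were called higher, where 22.9% of all pairs were, and the median was 1.78. Without the male library the log2 changes in gCap were 2.18 for Gbp5, 2.07 for Irgm2, 1.27 for Gbp2, 1.04 for Iigp1, 0.86 for Gbp6, 0.69 for Gbp7, 0.56 for Igtp, 0.35 for Gbp4, 0.33 for Gbp3 and -0.07 for Irgm1. In either direction DESeq2 called 37 of 88 pairs, where it called 27.9% of all pairs, and a fit with all 4 day 21 libraries called 46 of 90, where it called 56.3% of all pairs. In gCap, Gbp2, Gbp5, Gbp6, Gbp7, Iigp1 and Irgm2 stood above both day 1 libraries in all 4 day 21 libraries, hyperoxia included. The share of all genes with that pattern is not given here. The day 1 counts were made with another version of Cell Ranger than the day 21 counts, so age and software version cannot be told apart. In gCap the median log2 change was -0.58 for genes without introns and 0.05 for genes with introns, and all 10 members have introns.

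**Figure D5:**
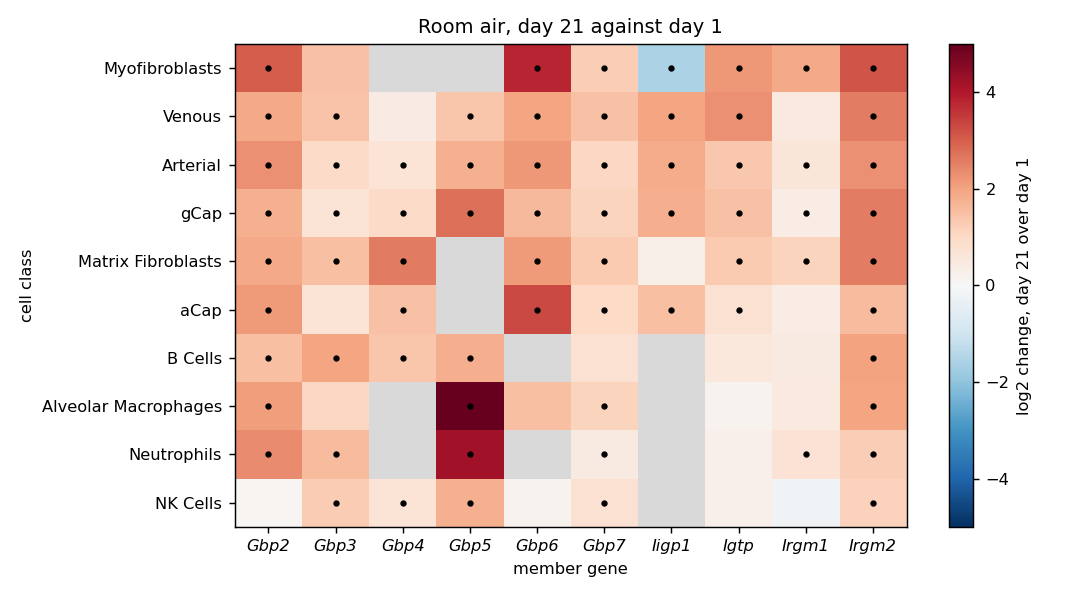
Log2 change from day 1 to day 21 in room air for each gene and class, from red (higher at day 21) to blue (lower), with values past 5 drawn in the darkest colour and a dot where edgeR called the pair. Grey squares did not pass the filter on low counts, the column of Irgm2 is red and dotted in all 10 classes, and the single blue dotted square is Iigp1 in myofibroblasts.

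The ligand was measured beside the genes. Ifng, the gene of interferon-gamma, had 324 UMIs in the male room air library of day 21 and 117 in the female one, with 286 and 143 after hyperoxia (female and male) and 112 and 118 at day 1. As CPM of all cells this was 4.41, 1.25, 3.33, 1.68, 1.01 and 0.998 CPM. Between 92.0% and 98.5% of these UMIs were in T cells, regulatory T cells and NK cells. T cells made up 12.5% of the cells of the male and 2.17% of the female room air library, 9.79% and 7.92% after hyperoxia (female and male). NK cells made up 4.15% and 0.966% in room air (male and female) and 3.75% and 2.33% after hyperoxia (female and male). In room air NK cells held 255 Ifng UMIs in the male and 54 in the female library, and T cells 48 and 47. After hyperoxia NK cells held 256 and 124 (female and male), and T cells 8 and 6. The summed level of the GTPase genes in gCap was 1157 CPM in the male and 511 CPM in the female room air library, and 389.8 and 363 CPM after hyperoxia (female and male). A link between Ifng and these levels was not tested. In T cells Ifng stood at 4.90 CPM in the male and 16.0 CPM in the female room air library, and at 0.833 and 0.807 CPM after hyperoxia (female and male). In NK cells it stood at 74.8 CPM in the male and 44.1 CPM in the female room air library, and at 74.0 and 60.1 CPM after hyperoxia (female and male). The part of these cells in the level of the GTPase genes was not tested. T cell markers (Cd3e, Cd3d, Cd3g and Trac), of which none was at 0, summed to 1.75 and 5.56 CPM in gCap cells of the female and male room air libraries of day 21 and to 3.00 and 4.77 CPM after hyperoxia, against 2003 to 2541 CPM in T cells. The NK cell markers (5 of 5 above 0 in each library) summed to 1.39, 4.88, 3.64 and 1.66 CPM in the same order, against 7680 to 12476 CPM in NK cells. The male room air library was thus the highest of the 4 for both lists. The neutrophil markers (also 5 of 5) summed to 65.7 to 221 CPM, against 119595 to 152552 CPM in neutrophils, and the male room air library was the lowest. The nonclassical monocyte markers (4 of 4) summed to 917 to 972 CPM in gCap cells, against 2004 to 2215 CPM in those monocytes, and the male room air library was again the lowest. The level of each single marker is not given here, and the source of these UMIs in gCap cells was not tested.

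The other genes of the pathway were read out from the same fits. They were set beside the members by the male over female ratio in room air gCap cells at day 21, which was among the values that picked the members. For the log2 ratios of this paragraph 1 CPM was added to each level, so they are smaller in size than ratios of the CPM printed elsewhere. The members had a median log2 ratio of 1.10, with 7 of 10 past 2-fold, where 0.379% of all genes tested were. The 6 MHC class II genes, which present antigen to helper T cells and answer to the coactivator Ciita, had a median of 2.21, with H2-Aa at 25.1 CPM in the female and 148 CPM in the male library. Other GTPases of the same families had a median of 0.47 over 8 genes, led by Tgtp1 at 1.66 and Tgtp2 at 1.43. Other interferon-gamma targets (14 genes) also had a median of 0.47, with Tap1, a subunit of the peptide transporter, at 1.00 and Psmb9, a subunit of the immunoproteasome, at 0.91. Type I interferon targets had a median of 0.42 over 16 genes, with Ifit3 at 0.99 and Isg15 at 0.58. Genes of the receptor and its signalling had a median of 0.24 over 10 genes, with Ciita at 1.40, Ifngr1 at 0.08 and Jak1 at -0.06. All genes tested had a median of -0.01. After hyperoxia the medians of the 6 lists lay between -0.22 and 0.08.

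The age comparison in gCap called 7 of 8 other GTPases higher and 6 of 6 MHC class II genes, as well as 8 of 13 other interferon-gamma targets higher and 1 lower. Of the signalling genes 6 of 10 were higher and 1 was lower, and of the type I targets 7 of 16 were higher and 3 were lower. In gCap 35.1% of all genes tested were called higher.

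The genes closest to the members in pattern were sought over 112 points, each a library and a class with at least 50 cells, from 28 classes. Pearson's r with the members' mean log2(CPM + 1), centred on each class, was computed for 11647 genes as a description, and points of 1 library share its depth. The closest genes outside the members included H2-T22 (0.84), Tgtp2 (0.84), B2m (0.84), H2-Q7 (0.83), Parp14 (0.80), Ifi47 (0.80) and H2-Q4 (0.79). Among the members, Gbp7 ranked 1, with r = 0.87, and Gbp4 ranked 46. The points include the day 21 libraries that picked the members, so their ranks are not comparable with those of other genes. Iigp1 ranked 2365, with r = 0.50 over the same points. In gCap cells B2m, the light chain of MHC class I, stood at 555 and 573 CPM at day 1, 1060 and 1475 CPM in room air at day 21 and 817 and 759 CPM after hyperoxia (female and male in each pair).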

How the data were processed

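Each deposited matrix holds the authors' counts of UMIs for every gene in every barcode, made with Cell Ranger, version 6.0.0 for day 1 and 7.0.1 for day 21 per the file headers. The submitters' processing notes name Cell Ranger 6.0.0, Seurat 4.1.1 and mm10, with no role. Whether reads in introns were counted is not given in the sources used here. Classes are the authors' deposited annotation, and cells without a class of 1 of the 4 lineages entered no comparison.

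The 10 members were given by symbol and all are named. Of the 8 genes closest in pattern, 1 is not reported here. The members and the lists read beside them were chosen with earlier results of these data known. Counts were summed per library and class, for classes with at least 50 cells in each library compared. Genes were filtered with filterByExpr, scaled by TMM and tested with edgeR 4.0.16 (R 4.3.3), with Benjamini-Hochberg adjustment over all genes tested in a class and a call at an adjusted p under 0.05. The fits of the main values had 4 libraries and 1 residual degree of freedom. Fits without 1 library had 3 and no covariate, and a library alone in its group was assumed to vary like the others. The fits were tested on simulated counts. Ratios between 2 libraries have no test. CPM has exact Poisson and shares have exact binomial 95% intervals. A count of 0 was given a floor of 3 UMIs. Doublets were called with Scrublet in scanpy 1.11.5 on every barcode (1.42% to 11.1% of cells) and kept in the main values. Whether the authors removed doublets is not given in the sources used here.

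Results were recomputed with each library left out, with DESeq2 1.42.0, without a covariate or a filter, with upper-quartile scaling, with doublets left out, a stricter cell filter (at least 1000 genes, at most 10% mitochondrial UMIs), equal cell numbers, cells lacking Xist left out, and with other sets of libraries.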

Additional observations from a re-analysis of the deposited data

Results flagged for a closer look

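Iigp1 in regulatory T cells moved in opposite directions with hyperoxia in the 2 sexes at day 21, on the log2 scale by 2.26 in females (2.11 CPM in room air, 10.1 CPM after hyperoxia) and by -2.35 in males (54.4 and 10.6 CPM). The difference was not tested, each value is 1 library against 1, and the female room air level rests on 6 UMIs. The male room air level comes from 11 of 119 cells (9.24%), with 6.64 UMIs in each on average.

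Barcodes that the authors left without a class, which entered no comparison, also carried the 10 genes. Their summed level was 77.4 CPM (female) and 94.9 CPM (male) at day 1, 197 and 279 CPM in room air at day 21, and 158 and 142 CPM after hyperoxia. The male room air library was again the highest.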

How the results depend on the processing

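No paired analysis was possible because each group had 1 library, so that replicate numbers pair nothing beyond the sex or condition that the fits held as a covariate. Without 1 library at a time, the age calls ran from 47 (without the male room air library of day 21) to 73, the hyperoxia calls from 9 (without the same library) to 49, and the sex calls stayed at 0. Age calls were 37 with DESeq2 (27.9% of all pairs) and 46 with all day 21 libraries (56.3%), against 54.3% of all pairs in the main comparison. Hyperoxia calls were 1 with DESeq2 and 2 without the sex covariate, and the cause was not tested. The male over female log2 ratio in gCap after hyperoxia turned from -0.10 to 0.05 when female cells lacking Xist were left out, an alternative chosen after seeing the data, and the cause was not tested. The sex calls were also 0 in all 6 libraries, where 20 pairs had an unadjusted p under 0.05 by edgeR. That set includes the room air pair of day 21 that took part in picking the genes, and the share of all pairs is not given here. Nothing is read from those 20 pairs. Taking the median of the members' own ratios, with 1 CPM added to each level, in place of the ratio of their sum gave a male over female log2 ratio of 1.10 in gCap, against 1.18. The share of male room air gCap cells with a UMI of any member went from 90.5% to 66.1% after thinning to 2000 UMIs. Over the libraries left out, log2 age changes ran from -0.24 to 1.54 for Igtp in aCap, from -0.04 to 1.21 for Irgm1 in arterial cells and from -0.07 to 0.84 for Irgm1 in gCap, and each lowest value was without the male room air library of day 21. For single pairs, 893 of 1034 age values and 291 of 335 hyperoxia values kept their direction and side of the threshold. The hyperoxia values cover 28 pairs. Of 65 male over female values of room air in classes other than gCap, 52 stayed the same and 13 moved. With 1 pool per group, variation between pools was not measured for any group. Low counts kept 12 pairs out of the age comparison, namely Iigp1 in alveolar macrophages, neutrophils, B cells and NK cells, Gbp4 in alveolar macrophages, neutrophils and myofibroblasts, Gbp5 in aCap, matrix fibroblasts and myofibroblasts, and Gbp6 in neutrophils and B cells.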
